A study of Mus musculus with 477 samples.

Results

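The 10 genes described here belong to the epithelial-mesenchymal transition (EMT). They were followed through single luminal and tumor cells of mouse mammary glands, most of them Brca1-deficient. They were chosen by name, 7 transcriptional regulators (Zeb1, Zeb2, Snai1, Snai2, Twist1, Twist2 and Prrx1) and 3 mesenchymal genes (Vim, Fn1 and Cdh2), and all 10 had a line among the 21004 genes of the count table. Full-length cDNA of single cells captured on Fluidigm C1 chips was sequenced. The table held 477 cells of 11 female mice, 165 tumor cells of 4 mice and 312 luminal cells of 7 mice.

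The mice carried MMTV-Cre, which recombines floxed alleles in the mammary epithelium, and the ROSA mT/mG reporter on a mixed C57BL/6 and 129/Sv background. The alleles were Brca1 fl/fl (Br), Trp53 fl/+ (53) or both (Br53). Luminal cells came from virgin (v) mice or from mice at day 12.5 of pregnancy (p), all 3 to 4 months old, and were sorted as DAPI-, CD24Hi, CD29Lo and mGFP+. The luminal groups were vBrL (35 cells), pBrL (71 and 38 cells of 2 mice, pBrL-1 and pBrL-2), vBr53L (39 cells), pBr53L (53 cells), v53L (40 cells) and p53L (36 cells), so that 5 luminal mice carried the floxed Brca1 alleles and v53L and p53L did not. Tumor cells were sorted as DAPI- and CD24+, with no selection for GFP, from tumors of about 1 cm of Br mice (BrT1, 47 cells, and BrT2, 37 cells) and of Br53 mice (Br53T1, 30 cells, and Br53T2, 51 cells). Except for pBrL each group was 1 mouse, so each tumor stands for itself and the mouse was taken as the replicate.

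In EMT, epithelial cells give up their cadherin junctions and take on a motile, matrix-producing state. ZEB and SNAI proteins are zinc finger repressors that bind E-boxes in epithelial genes such as Cdh1, TWIST proteins are basic helix-loop-helix factors and PRRX1 is a homeodomain factor of embryonic mesenchyme. Vimentin is the intermediate filament of mesenchymal cells, fibronectin is a matrix glycoprotein and N-cadherin (Cdh2) is the cadherin that takes the place of E-cadherin (Cdh1). In the mammary gland Snai2 is also known as a gene of basal cells, and most luminal cells lack these factors.

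Every level below is in CPM, the reads of a gene per 1000000 reads assigned to genes, summed over the cells of 1 mouse unless a cell is named. The cells held 170209 to 3550564 reads (median 1692327) and 1853 to 8586 detected genes. To compare shares of cells, each cell was thinned to 100000 reads, a depth that all cells reached, and no 2 cells held identical values. A cell with no read of a gene and a cell with little RNA of it cannot be told apart. As a check of the sort, Cd24a stood at 1087 to 1940 CPM in the luminal mice and at 260 to 1034 CPM in the tumors. The counts of Brca1 and Trp53 include undeleted exons and check no genotype. BrT1, BrT2 and Br53T1 were each on a C1 chip of their own, so for them chip and tumor cannot be told apart. Br53T2 shared its chip with pBrL-2, vBr53L with pBr53L and v53L with p53L.

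Among the members, Snai1 and Vim were the pair whose level was higher in all 4 tumors than in all 7 luminal mice. Their proximal promoters are shown for that reason, as the 250 bases before the RefSeq start site in GRCm38.p6, both on the plus strand of chromosome 2. The Snai1 stretch is chr2:167537945-167538194 and its capitals mark CACCTG, the reverse complement of the E-box CAGGTG to which ZEB and SNAI proteins bind, here starting 126 bases before the start site. The Vim stretch is chr2:13574061-13574310 and its capitals mark TATAAA, starting 32 bases before the start site. GENCODE vM21 starts the Vim gene upstream of it, at chr2:13573927, so the stretch lies within the gene as annotated there.
Snai1: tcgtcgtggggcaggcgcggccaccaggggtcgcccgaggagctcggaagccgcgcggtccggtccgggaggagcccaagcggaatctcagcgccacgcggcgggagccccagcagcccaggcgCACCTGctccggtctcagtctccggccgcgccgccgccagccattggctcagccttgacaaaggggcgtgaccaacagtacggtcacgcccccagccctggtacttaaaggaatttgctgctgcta
Vim: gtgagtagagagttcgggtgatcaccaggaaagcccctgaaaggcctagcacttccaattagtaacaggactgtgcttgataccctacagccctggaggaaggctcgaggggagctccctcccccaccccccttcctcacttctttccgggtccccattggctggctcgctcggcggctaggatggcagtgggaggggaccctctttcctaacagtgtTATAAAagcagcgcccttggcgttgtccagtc

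RefSeq promoters, 250 bases before to 50 after the start site, were found for 6 of the 10 members (Snai1, Zeb2, Twist1, Twist2, Prrx1 and Vim, 9 promoters). CAGGTG was searched on both strands, as CAGGTG or CACCTG, and stood in 20.2% of all 32851 promoters of the same length. Among the member promoters that of Snai1 was the one with a match. TATAAA, searched as TATAAA or TTTATA, stood in 13.6% of all promoters and in those of Vim and Twist1. A match describes letters in a window and is not a measured binding site.

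Snai1 encodes SNAIL, a repressor of Cdh1. Its gene is at chr2:167538195-167542814 on the plus strand (GRCm38, GENCODE vM21). The Br tumors held 20.9 CPM (BrT1) and 25.6 CPM (BrT2), and the Br53 tumors 30.2 CPM (Br53T1) and 8.85 CPM (Br53T2). Of the Brca1-deficient luminal mice vBrL, pBrL-1 and pBr53L were at 0 CPM, pBrL-2 at 0.0130 and vBr53L at 0.0588. All 4 tumors stood far above all 5 of these mice, with no overlap. The mean was 21.4 ± 9.19 CPM in the tumors (SD, n = 4) and 0.0144 ± 0.0255 CPM in the luminal mice (SD, n = 5). The luminal value rested on 5 reads against 5639 in the tumors. In edgeR's quasi-likelihood test over 12978 genes Snai1 rose by 10.36 ± 1.57 (log2 fold change ± SE, adjusted p = 0.0216). It passed the filter on low counts of this test through the tumors alone, the group where it is high. Without BrT2, pBrL-1, pBrL-2 or pBr53L in turn the adjusted p was 0.0518, 0.0516, 0.0626 and 0.0544 by the same edgeR test, with folds of at least 10.00 on the log2 scale.

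The share of cells with a Snai1 read was modest in every tumor. BrT1 had 21.3% (10 of 47, exact binomial 95% interval 10.7 to 35.7), BrT2 37.8% (14 of 37, 22.5 to 55.2), Br53T1 36.7% (11 of 30, 19.9 to 56.1) and Br53T2 11.8% (6 of 51, 4.44 to 23.9). Intervals on shares cover counting error only, since PCR reads without molecular identifiers are not independent molecules. With all reads kept, cells with a Snai1 read made up 44.7%, 48.6%, 50% and 13.7%, in the same order. The highest single cell held 500.1 CPM (BrT1), 338.8 CPM (BrT2), 337.6 CPM (Br53T1) and 179.3 CPM (Br53T2).

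Of the luminal mice with intact Brca1, p53L had no Snai1 read and v53L held 143 reads, 3.55 CPM, all in 1 cell. When v53L and p53L joined the luminal group the Snai1 fold was 5.12 ± 2.00 on the log2 scale and the edgeR adjusted p was 0.241. Within the chip shared by Br53T2 and pBrL-2, Snai1 was at 8.85 against 0.0130 CPM, Vim at 212 against 2.05 CPM and Fn1 at 357 against 1.82 CPM.

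**Figure D1:**
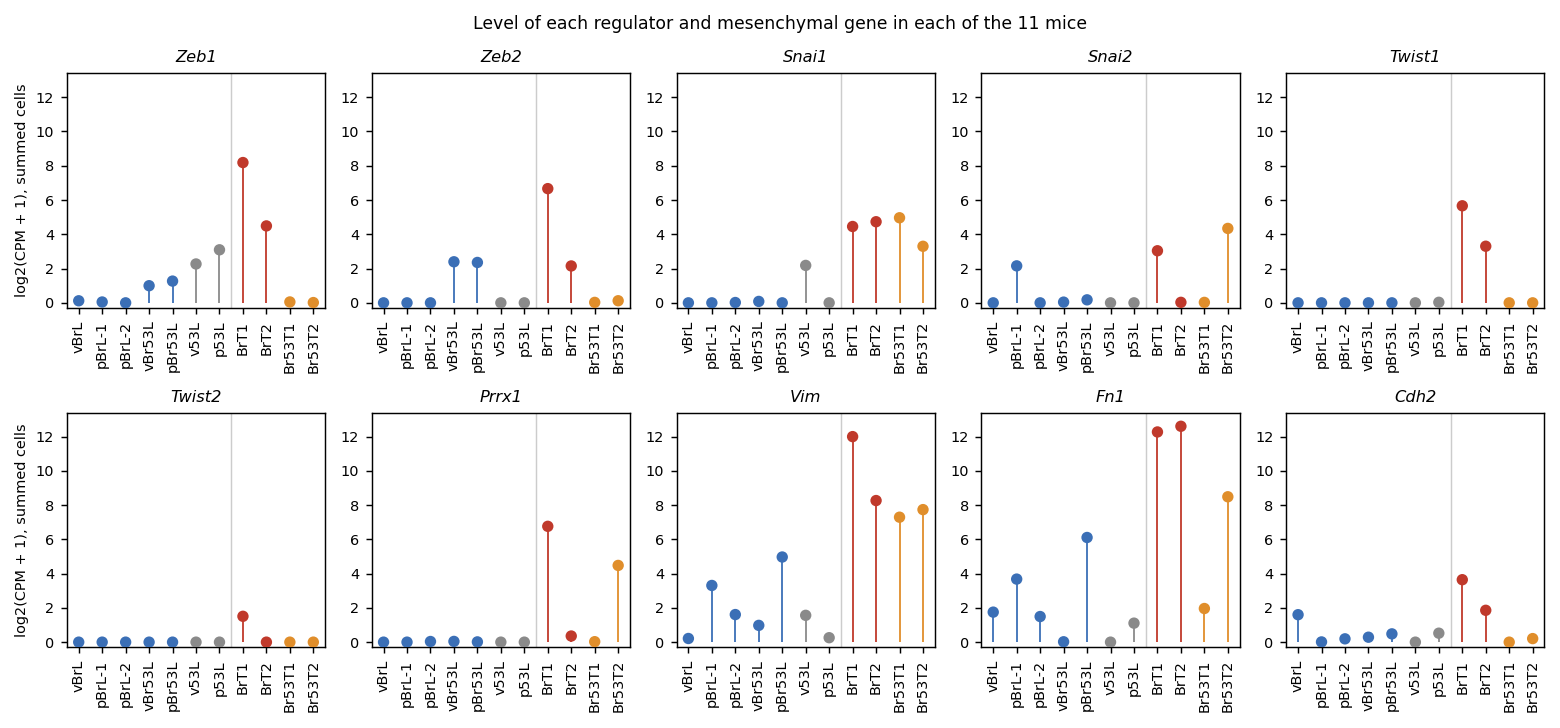
Level of each member in each mouse, in CPM on a log2(CPM + 1) axis, with 1 point for each of the 11 mice. Blue is luminal with floxed Brca1, grey luminal 53, red Br tumor and orange Br53 tumor. Snai1 and Vim are the members for which all 4 tumors lie above all luminal mice, and BrT1 lies highest for 7 of the 10 members, Snai1, Snai2 and Fn1 being the others.

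Zeb1 encodes the zinc finger repressor ZEB1 and lies at chr18:5591860-5775467 on the plus strand. BrT1 held 290.5 CPM and BrT2 21.5 CPM, while Br53T1 held 0.0364 CPM from 2 reads and Br53T2 0.0110 CPM from 1 read. Of the Brca1-deficient luminal mice vBrL was at 0.0866 CPM, pBrL-1 at 0.0345, pBrL-2 at 0, vBr53L at 1.0 and pBr53L at 1.41, and the intact mice v53L and p53L held 3.82 and 7.55 CPM. In the luminal mice with a Zeb1 read, 1 cell gave 57.8% (v53L) to 100% (vBrL) of the reads. Both Br tumors stood above all 7 luminal mice, while both Br53 tumors stood below every luminal mouse but pBrL-2 and, for Br53T1, pBrL-1. In BrT1 it was spread over the cells, with a read in 46 of 47 thinned cells (97.9%, 88.7 to 99.9), and with 16.2, 232.8 and 1687 CPM in the lowest, median and highest cell. In BrT2 it was read in 5 of 37 cells (13.5%, 4.54 to 28.8), or in 14 (37.8%) with all reads kept, and 1 cell gave 61.1% of its reads.

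Zeb2 encodes the paralog ZEB2 and lies at chr2:44983632-45117395 on the minus strand. BrT1 held 100.5 CPM and BrT2 3.45, against 0.0182 CPM for Br53T1 and 0.0881 for Br53T2. The luminal mice were at 0 CPM except vBr53L at 4.26 and pBr53L at 4.12. BrT1 alone was above all luminal mice, with a Zeb2 read in 31 of its 47 cells. Zeb1 and Zeb2 share exon bases with annotated opposite-strand genes, and the sources used here do not say whether reads were counted by strand, so their counts may hold antisense reads.

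Snai2 encodes SLUG and lies at chr16:14705852-14709385 on the plus strand. Br53T2 held 19.3 CPM and BrT1 7.22, with 0.0200 CPM in BrT2 and 0.0182 in Br53T1. The luminal mice held 0 to 0.129 CPM except pBrL-1 at 3.46. It was read in 10 of the 51 Br53T2 cells (19.6%, 9.82 to 33.1) and in 5 of the 47 BrT1 cells. With all reads kept 23 Br53T2 cells (45.1%) and 8 BrT1 cells had a Snai2 read. In Br53T2 1 cell gave 62.4% of the Snai2 reads and in BrT1 1 cell gave 67.1%.

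Prrx1 lies at chr1:163245119-163313710 on the minus strand. BrT1 held 107 CPM and Br53T2 21.3, with 0.281 CPM in BrT2 and 0.0182 in Br53T1, and no luminal mouse was above 0.0294. BrT1 and Br53T2 were the tumors with Prrx1 in many cells, 30 of 47 (63.8%, 48.5 to 77.3) and 8 of 51 (15.7%, 7.02 to 28.6), the latter 17 of 51 (33.3%) with all reads kept. The 0.281 CPM of BrT2 came from 1 cell.

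Twist1 lies at chr12:33957671-33959829 on the plus strand and was read, among the tumors, in the Br tumors alone, at 49.7 CPM in BrT1 (32 of 47 cells, 46 with all reads kept) and 8.88 CPM in BrT2 (6 of 37 cells, 10 with all reads kept). Br53T1 and Br53T2 had no Twist1 read in 30 and 51 cells, which, at a floor of 3 cells over the cells of the tumor, allows shares of cells with a read of up to 10.0% and 5.88%, with exact binomial 95% upper limits of 11.6% and 6.98%. The luminal mice held 1 Twist1 read in all, in p53L. Pooled over the 4 tumors it was at least 2481-fold higher than in the 5 Brca1-deficient luminal mice, whose count of 0 was set to a floor of 3 reads over the group. BrT1 gave 4501 of the 4944 tumor reads, and with no read in the Br53 tumors the groups overlapped. Twist2 (chr1:91801461-91848028, plus strand) had reads in BrT1 alone, at 1.84 CPM and in 3 of 47 cells (11 with all reads kept, 23.4%). It shares 1477 exon bases with an annotated gene of the opposite strand, so these reads may be antisense.

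Vim, at chr2:13573927-13582826 on the plus strand, likewise had no overlap between tumors and luminal mice. Beside 4080, 306, 156 and 212 CPM in BrT1, BrT2, Br53T1 and Br53T2, of the Brca1-deficient luminal mice vBrL was at 0.159 CPM, pBrL-1 at 8.90, pBrL-2 at 2.05, vBr53L at 0.971 and pBr53L at 30.3. The tumor with the least Vim was 5.14-fold above the luminal mouse with the most. The log2 fold change was 6.90 ± 1.63 (edgeR, adjusted p = 0.0803), and without BrT1 it was 4.6. Against all 7 luminal mice, where 1.61% of genes passed, Vim was the member called, at 7.27 ± 1.49 (edgeR, adjusted p = 0.0318). All 47 BrT1 cells had a Vim read, against 22 of 37 in BrT2, 17 of 30 in Br53T1 and 24 of 51 in Br53T2. With all reads kept the last 3 shares were 78.4%, 80% and 80.4%.

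Fn1, at chr1:71585520-71653200 on the minus strand, went another way through the tumors. It was read in every cell of BrT1 and BrT2, in 33 of 51 cells of Br53T2 (64.7%, 50.1 to 77.6) and in 1 of 30 cells of Br53T1 (3.33%, 0.0844 to 17.2). The Br53T1 level of 2.90 CPM was below that of pBrL-1 (11.8 CPM) and of pBr53L (67.96 CPM), so the groups overlapped. The log2 fold change was 7.29 ± 2.18 (edgeR, adjusted p = 0.169). Some Fn1 exon bases are shared with an annotated gene of the opposite strand.

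Cdh2, at chr18:16588877-16809246 on the minus strand, was read at low levels throughout. BrT1 held 11.5 CPM (16 of 47 cells, 33 with all reads kept) and BrT2 2.63 (2 of 37 cells), against 0 CPM for Br53T1 and 0.154 for Br53T2. The luminal mice held 0 to 0.436 CPM except vBrL, which held 2.03. Its log2 fold change was 2.52 ± 1.91 (edgeR, adjusted p = 0.613).

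**Figure D2:**
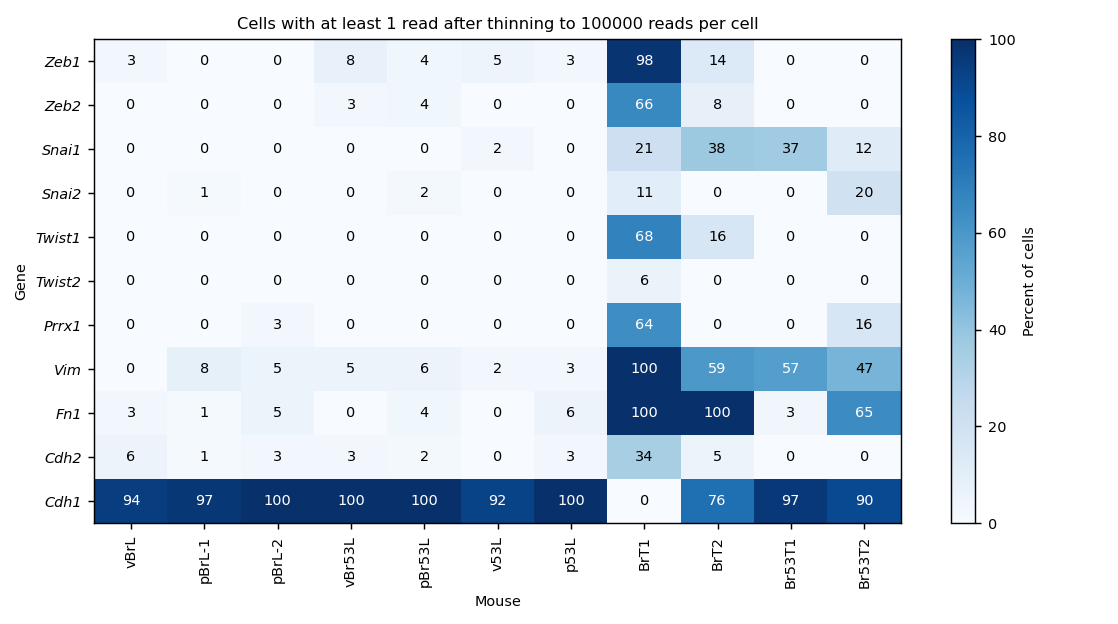
Percent of the cells of each mouse with at least 1 read of each member, and of Cdh1 for comparison, after thinning to 100000 reads a cell. Zeb1 is in 97.9% of BrT1 cells and 13.5% of BrT2 cells, and Fn1 is in all cells of both but in 3.33% of Br53T1 cells.

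Set per kilobase of exon, so that genes can be ordered within a tumor, the regulators of BrT1 were led by Twist1 (30.5 CPM per kb) and Zeb1 (28.3), followed by Snai1 (12.9), Prrx1 (9.69), Zeb2 (5.04), Snai2 (3.57) and Twist2 (0.581). In BrT1 1 cell gave 48.9% of the Snai1 reads. Leaving out the cell with the most reads of each gene, Twist1 was at 26.5 and Zeb1 at 26.4 CPM per kb, Prrx1 (7.50) stood above Snai1 (6.74), and Zeb2 was at 4.21, Snai2 at 1.20 and Twist2 at 0.312. In BrT2 Snai1 led at 15.8 CPM per kb, before Twist1 at 5.45 and Zeb1 at 2.09, and without the top cell of each gene these were 11.4, 3.62 and 0.843. Br53T1 had Snai1 at 18.7 CPM per kb and no other regulator above 0.01. Br53T2 had Snai2 at 9.54 CPM per kb, Snai1 at 5.46 and Prrx1 at 1.92. Without the top cell of each gene these 3 stood at 3.64, 3.40 and 1.33, so that Snai2 and Snai1 were close. Among the mesenchymal genes Vim led per kilobase in BrT1 (860 against 422 for Fn1) and Fn1 led in BrT2 (531 against 64.5 for Vim). With 1 mouse a tumor these orders have no replicate spread.

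Taking the 10 members at once, all 10 were higher in BrT1 than in each of the 7 luminal mice, where 24.2% of all 19603 genes with a read were. BrT2 had 7 of 10, all but Zeb2, Snai2 and Twist2, against 17.1% of all genes. Br53T2 had 5 of 10 (Snai1, Snai2, Prrx1, Vim and Fn1) against 21.9%, and Br53T1 had 2 of 10 (Snai1 and Vim) against 20.5%. Without the tumor's top cell of each gene these counts were 9 in BrT1 (14.7% of all genes), 5 in BrT2 (9.12%), 5 in Br53T2 (9.98%) and 2 in Br53T1 (11%). Single cells thus decided Snai2 in BrT1 and Prrx1 and Cdh2 in BrT2. Snai1 and Vim, 2 of 10, were higher in all 4 tumors than in all 5 Brca1-deficient luminal mice, as were 3.52% of all genes.

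In the edgeR comparison of the 4 tumors with those 5 mice, 79 of 12978 genes passed an adjusted p of 0.05 (0.609%), 51 of them higher in the tumors (0.393%). Of the members, 6 passed the filter on low counts, Snai1 through the tumors alone, and 1, Snai1, passed the test. Zeb1 gave 7.03 ± 2.47 (edgeR, adjusted p = 0.232) and Zeb2 3.71 ± 2.49 (edgeR, adjusted p = 0.556) on the log2 scale. Snai2, Twist1, Twist2 and Prrx1 failed the filter. Tested without the filter, 0.665% of genes passed and the members that passed were Snai1 and Prrx1, the latter at 10.95 ± 2.20 (edgeR, adjusted p = 0.0437). DESeq2 called 6.23% of genes and 3 members, Fn1, Snai1 and Zeb1. Without BrT1, 0.372% of genes passed edgeR's test, Snai1 among them (adjusted p = 0.0498), and Zeb2 turned to -0.54.

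How many regulators a cell held differed between the tumors. Every BrT1 cell had a read of at least 2 of the 7 regulators, with 10 cells at 2, 15 at 3, 19 at 4, 2 at 5 and 1 at 6. In BrT2 18 cells had none, 12 had 1, 5 had 2 and 2 had 3. In Br53T1 11 of 30 cells had 1, always Snai1, and none had more. In Br53T2 16 cells had 1 and 4 had 2. No luminal cell had more than 1, and the share with any regulator was 1.41% to 10.3% of the cells of a luminal mouse, against 36.7% to 100% in the tumors.

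**Figure D3:**
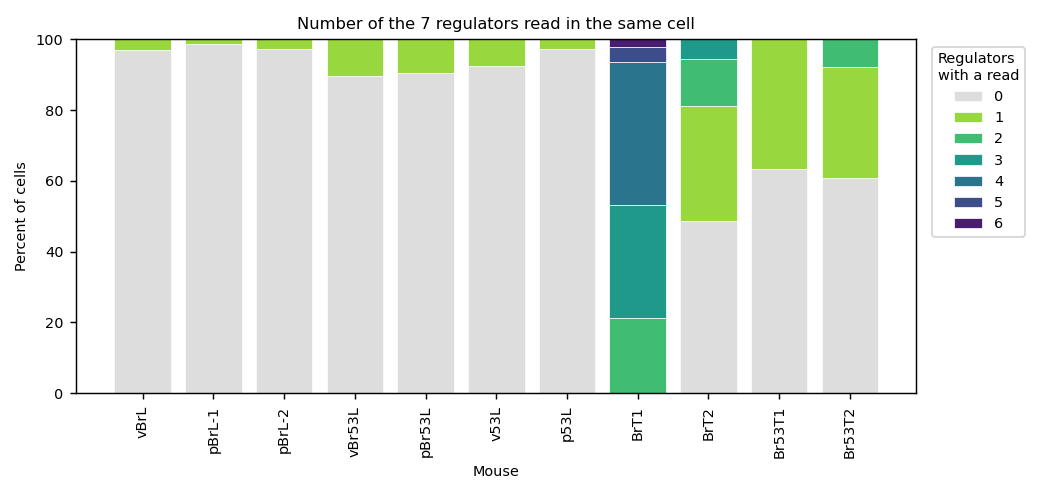
Percent of cells of each mouse by the number of the 7 regulators with a read, after thinning to 100000 reads a cell. BrT1 cells hold 2 to 6 regulators with a median of 3, and luminal cells hold 0 or 1.

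Which regulator went with which mesenchymal gene was read off cell by cell within each tumor. A pair was looked at where both genes had a read in at least 10 cells, which 20 pairs met, 15 of them in BrT1. None reached a Spearman rho of 0.5 on log2(CPM + 1) in thinned cells. The values ran from -0.244 for Zeb2 with Cdh2 to 0.291 for Prrx1 with Fn1, both in BrT1 (n = 47 cells), with a median of 0.024. Zeb1 and Vim, both in nearly all BrT1 cells, gave -0.052. Snai1 with Vim gave 0.064 in BrT1, 0.231 in BrT2 (n = 37 cells) and 0.083 in Br53T1 (n = 30 cells). Snai2 gave 0.173 with Fn1 and -0.033 with Vim in Br53T2 (n = 51 cells). The cells of a tumor share a mouse, a chip and a depth, and Fn1 itself went down with the number of genes detected in BrT1 (rho -0.444). With all reads kept 29 pairs qualified and the highest rho was 0.358. In these sparse counts such values are a description, and a weak rho at this depth does not show that a pair is unrelated.

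**Figure D4:**
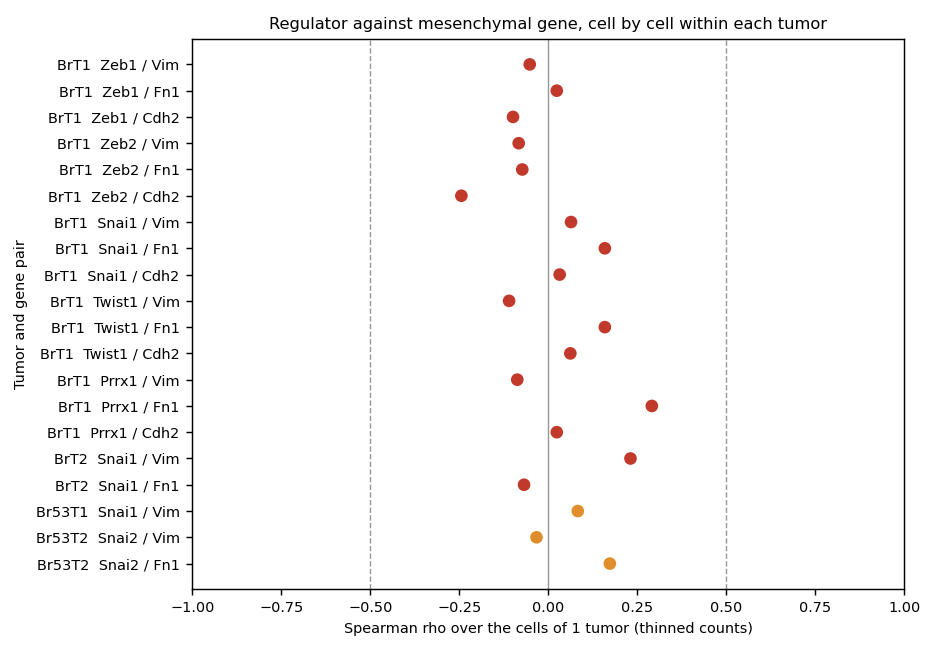
Spearman rho of each regulator with each mesenchymal gene across the cells of a tumor, for the 20 pairs with both genes read in at least 10 cells (red for Br, orange for Br53 tumors, dashed lines at 0.5 and -0.5). The points run from -0.244 to 0.291 and none reaches 0.5.

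In BrT1 the number of cells with a pair of regulators was set beside the product of their shares, with no test. Twist1 and Prrx1 were both read in 20 cells, where the product of their shares gives 20.4, and Zeb2 and Twist1 in 23 cells, where it gives 21.1. Zeb2 met Snai2 in 1 cell (product 3.30), Snai2 met Twist1 in 2 (3.40), Zeb2 met Twist2 in 3 (1.98) and Twist2 met Prrx1 in 3 (1.92). Snai1 and Snai2 met in 0 cells of BrT1 (product 1.06) and in 0 cells of Br53T2 (product 1.18). Snai2 and Prrx1 met in 4 cells of Br53T2, where the product gives 1.57.

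In Br53T2 the cells with a regulator read after thinning were set beside the other cells. The 10 cells with Snai2 had a median summed level of 4915 CPM for 6 basal or myoepithelial markers (Krt5, Krt14, Krt17, Acta2, Myh11 and Trp63), against 1230 CPM in the other 41 cells. Their luminal markers (Krt8, Krt18, Krt19, Epcam, Cdh1 and Cd24a) summed to 1485 CPM, against 6600. The 8 cells with Prrx1 stood likewise at 4440 against 1730 CPM of basal and 1785 against 5750 CPM of luminal markers. The 6 cells with Snai1 stood the other way, at 215 against 2190 CPM of basal and 7565 against 5060 CPM of luminal markers. The other cells include some with a read that thinning removed. Split by all reads instead, the 23 Snai2 cells stood at 2130 against 1545 CPM of basal and 4480 against 6150 CPM of luminal markers, a much smaller gap. The 17 Prrx1 cells then stood at 3050 against 1480 and 2190 against 6855 CPM, and the 7 Snai1 cells at 110 against 2475 and 8110 against 4975 CPM.

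Krt14, a keratin of basal cells, was read in 10 of 10 Snai2 cells and in 25 of the other 41. The smooth muscle actin gene Acta2 was read in 8 of 8 Prrx1 cells (median 1645 CPM) and in 24 of the other 43 (median 10 CPM). Of 15 other mesenchymal genes the summed median was 2770 CPM in Snai2 cells against 810, 3540 in Prrx1 cells against 620, and 485 in Snai1 cells against 1540. Cdh1 was read in most cells of each group. It was read in 9 of 10 Snai2 cells and 37 of the other 41 (median 300 against 690 CPM), in 8 of 8 Prrx1 cells and 38 of the other 43 (690 against 650 CPM), and in 5 of 6 Snai1 cells and 41 of the other 45 (670 against 650 CPM). These are cells of 1 mouse and no test was made.

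**Figure D5:**
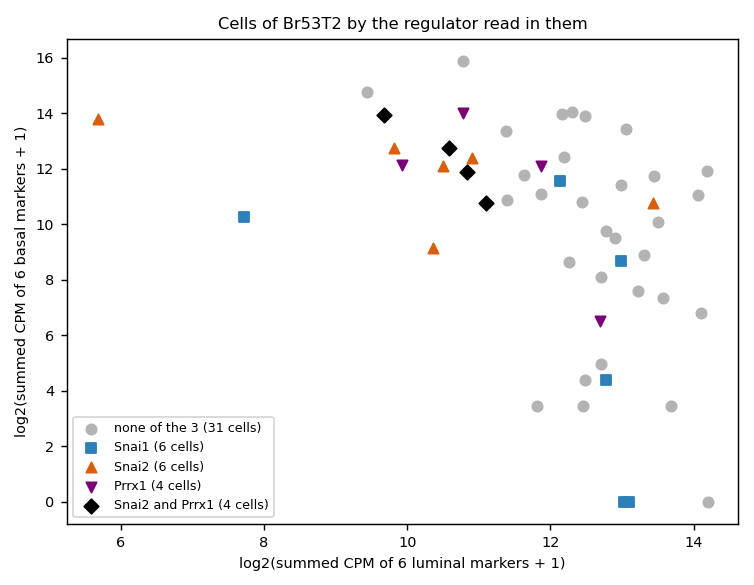
Each point is 1 of the 51 Br53T2 cells, by the summed CPM of 6 luminal markers and of 6 basal or myoepithelial markers in thinned cells, on log2(CPM + 1) axes, and color and shape name the regulator that has a read. Cells with Snai2 or Prrx1 lie mostly where basal markers are high, and the 6 cells with Snai1 have a basal median of 215 CPM.

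In BrT2 the 5 cells with a Zeb1 read after thinning were looked at one by one. The cell with the most Zeb1, 374 CPM, held 2.86 CPM of Cdh1, no Epcam read and 12900 CPM of Fn1. The next, at 166 CPM of Zeb1, held 0.755 CPM of Cdh1, 1.51 of Epcam and 16890 of Fn1. The remaining 3 held 99.6, 43.5 and 28.9 CPM of Zeb1, with 452, 675 and 1391 CPM of Epcam, the epithelial cell adhesion molecule, and 6.38, 5.84 and 161 CPM of Cdh1. Their Fn1 stood at 2527, 653.5 and 3055 CPM, below the median of 3773 CPM over all BrT2 cells. After thinning, Cdh1 was read in 2 of the 5 Zeb1 cells and in 26 of the other 32, and the luminal markers summed to a median of 1100 against 4725 CPM. Split by all reads, Cdh1 was read in 9 of 14 Zeb1 cells and 19 of the other 23, and the luminal sums were 2555 against 5050 CPM.

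Cdh1, the target that ZEB and SNAI proteins repress, was set beside the members. It had no read in BrT1, the tumor with the most members above the luminal mice, and the other tumors held 244 CPM (BrT2), 543 CPM (Br53T1) and 782 CPM (Br53T2). Snai1 was read in all 4 of these tumors, BrT1 and Br53T1 among them, whose Snai1 levels were 20.9 and 30.2 CPM. The 12 epithelial adhesion genes, Cdh1 included, summed to 146.7 CPM in BrT1 with 6 of 12 at no read, where BrT2 held 1804, Br53T1 3189, Br53T2 4141 and the luminal mice 2908 to 4647.

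Fibroblast markers (Dcn, Lum, Pdgfra, Col1a1, Col1a2 and Col3a1) moved with the members in BrT1. They summed to 4955 CPM there, 4356 of it Dcn, with Lum at no read. BrT2 held 0.140 CPM of them, Br53T1 3.39, Br53T2 96.5 and the luminal mice 0.117 to 712. Their part in the member levels of BrT1 was not tested. The 6 immune markers summed to 0.0601 to 51.8 CPM in the tumors.

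The genes around the members were read from lists. Of 15 other mesenchymal genes 10 were tested and 2 rose in the tumors by edgeR, the matrix protease gene Mmp2 by 10.71 ± 1.74 (adjusted p = 0.0282) and the actin-binding caldesmon gene Cald1 by 3.72 ± 0.56 (adjusted p = 0.0213). The median of the 10 was 3.90, beside 0.06 over all genes tested. In the same comparison the 6 basal or myoepithelial markers had a median of 4.21 with all 6 above 0, the 3 tested fibroblast markers a median of 6.80 and the 6 luminal markers a median of -1.22 with none above 0, and none of these markers passed edgeR's test. Their part in the values of the mesenchymal genes was not tested. Mmp2 stood at 178, 169, 62.4 and 11.7 CPM in BrT1, BrT2, Br53T1 and Br53T2 and at no more than 0.286 CPM in a luminal mouse.

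Of the 12 epithelial adhesion genes none passed edgeR's test between tumors and luminal mice, with a median log2 fold change of -1.005. The values of largest size were -2.27 ± 1.67 for Tjp3, 1.68 ± 1.62 for Dsp, -1.34 ± 1.28 for Ocln and -1.20 ± 0.79 for Epcam. The 10 tested epithelial regulators had a median of -0.22 with none past the test, among them Ehf at -1.43 ± 1.36 and the splicing factor Esrp1 at -1.41 ± 1.20. The 10 tested TGF-beta signalling genes, of a pathway known to induce EMT, had a median of -0.15 and none past the test. Smad7 was at 1.86 ± 0.53 and Tgfb2 at -1.82 ± 0.49. Of 7 tested other EMT-linked transcription factors none passed, with a median of 0.68 and values of -4.54 ± 2.74 for Snai3 and 3.41 ± 2.28 for Prrx2.

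The Br and Br53 tumors were then set against each other, since they differ in the Trp53 allele. By its deposited counts Trp53 was at 5.05 CPM (BrT1) and 49.8 CPM (BrT2), below the 67.2 CPM of Br53T1 and the 140 CPM of Br53T2, while the 7 luminal mice held 92.5 to 516 CPM. BrT1, which gave most of the member reads, had the least Trp53 RNA of the 4 tumors, and the part of this in the values below was not tested. Zeb1, Zeb2, Twist1, Vim, Fn1 and Cdh2, 6 of 10 members, were higher in both Br tumors than in both Br53 tumors, as were 9.94% of all genes. Pooled over cells, Zeb1 was 9468-fold higher in the Br tumors (exact counting interval 3239 to 45910, 3 reads in the Br53 tumors), Zeb2 1069-fold, Fn1 24.1-fold, Vim 14.4-fold and Cdh2 86.9-fold higher, and Twist1 at least 1709-fold higher against a floor of 3 reads over both Br53 tumors. Snai1 was 1.34-fold higher in the Br tumors. The interval covers counting error of the reads only and not the spread between tumors. It takes reads as independent, which PCR reads without molecular identifiers are not. BrT1 gave 26315 of the 27386 Zeb1 reads of the Br tumors. BrT2 alone was 1042-fold above the pooled Br53 tumors for Zeb1, 55.8-fold for Zeb2, 27.7-fold for Fn1, 27.3-fold for Cdh2 and 1.61-fold for Vim, where BrT1 was 21.4-fold above for Vim. For Twist1 BrT2 alone was at least 431-fold above, against the same floor.

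Between Br53 and Br tumors 0 of 13477 genes passed edgeR's test (0.0%), 537 had an unadjusted p under 0.05, and 9 members were tested. DESeq2 called 315 genes (2.34%), with Zeb1, Zeb2 and Twist1 lower in the Br53 tumors. edgeR without the filter called 295 genes (1.67%), with Zeb1, Zeb2, Twist1, Fn1 and Vim lower. On the log2 scale Zeb2 was at -9.83 ± 2.27, Fn1 at -5.04 ± 2.06, Vim at -3.57 ± 1.27 and Cdh2 at -6.48 ± 2.92 in the Br53 relative to the Br tumors. Without BrT1 the Vim value was -0.91, and without Br53T2 those of Fn1 and Cdh2 were -10.99 and -11.83. The edgeR adjusted p was 0.780 for Zeb1 and 1.00 for the other members.

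Snai1 (-0.34 ± 1.07), Snai2 (1.43 ± 3.05) and Prrx1 (-2.32 ± 2.84) showed no direction that held without each tumor in turn. Without Br53T2 the value of Snai1 was 0.30 and that of Snai2 -7.47, and without BrT1 that of Prrx1 was 5.06. The 12 adhesion genes had a median of 2.54, and 10 of 12 were higher in both Br53 tumors than in both Br tumors, as were 14.7% of all genes. None of them passed edgeR's test. In the same comparison the basal or myoepithelial markers had a median of 7.01 over the 5 tested, with 5 of 6 higher in both Br53 tumors, and the fibroblast markers a median of -4.64 over the 4 tested. Their part in these values was not tested. Whether the step from luminal to tumor cells differed between the genotypes was tested as an interaction in edgeR over 15051 genes, where 0.00664% of genes and none of 9 members passed (adjusted p = 0.166 for Zeb1).

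The luminal mice held few reads of the members, and these lay in few cells. Of 70 combinations of a member and a luminal mouse 33 had no read, and in 34 of the other 37 at least 75% of the reads came from 1 cell. No regulator was above 7.55 CPM in a luminal mouse. Of 312 luminal cells 275 had no member with 10 or more reads, 35 had 1, 1 had 2 and 1 had 3.

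The cell with 3 members, singled out after its values were seen, was from pBr53L and held 302 CPM of Zeb2, 2040 of Vim and 5845 of Fn1. It also held 18350 CPM of Lyz2, 2175 of Ptprc and 104.5 of Cd68, genes of myeloid and other immune cells, beside 15.7 CPM of Cdh1, 191 of Epcam, 309 of Krt8 and 272.5 of Krt18. Without it the pBr53L levels went from 4.12 to 0.683 CPM for Zeb2, from 30.3 to 7.11 for Vim and from 67.96 to 1.29 for Fn1. The cell was picked for its reads of these genes, so a fit without it is no test of them. The cell with 2 members, from p53L, held 212.5 CPM of Zeb1 and 32.8 of Fn1 beside 616 of Cdh1.

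Pregnancy was compared across the 7 luminal mice with genotype in the fit. Fn1 was at 11.8, 1.82, 67.96 and 1.16 CPM in pBrL-1, pBrL-2, pBr53L and p53L, and at 2.37, 0.0147 and 0 CPM in vBrL, vBr53L and v53L. These values overlapped. edgeR called 2 of 13709 genes (0.0146%) and none of 5 members tested, with Fn1 at 4.79 ± 2.36 (edgeR, adjusted p = 0.608) and Vim at 3.62 ± 2.84 (edgeR, adjusted p = 0.745). DESeq2 called 1044 genes (7.62%) and 1 member, Fn1. Within the chip of vBr53L and pBr53L Vim was at 0.971 and 30.3 CPM, and within that of v53L and p53L at 1.958 and 0.196 CPM. In these 4 mice alone, with the chip in the fit, edgeR called 8 genes and no member, with Fn1 at 11.81 ± 2.24 (edgeR, adjusted p = 0.150). That fit had 1 virgin and 1 pregnant mouse a chip, so its spread rests on few mice. The Fn1 folds and the DESeq2 call above all include the pBr53L cell with 3 members. That cell gave 98.1% of the Fn1 reads of pBr53L, and without it pBr53L was at 1.29 CPM of Fn1. Between Br53 and 53 luminal mice 0 genes passed edgeR's test (0.0%), DESeq2 called 582 and 681 were under an unadjusted p of 0.05 in edgeR, with no member called by either.

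Last, each member was matched with the genes whose level over the 11 mice was most like it, by Pearson's r of log2(CPM + 1) among 8730 genes of at least 10 CPM on average. Zeb1 was most like the collectin gene Colec12 (0.906), the collagen VI gene Col6a2 (0.906) and Tnfaip6 (0.895), and Zeb2 like Ubtd1 (0.936), Olfm1 (0.913) and Pcdh19 (0.904). Snai1 was most like Slc43a3 (0.990), the cystatin gene Cst3 (0.975) and the collagen chaperone gene Fkbp10 (0.971). Snai2 was most like Tgfb1i1 (0.977), the activin antagonist gene Fst (0.933) and the matrix gene Bgn (0.924).

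Twist1 shared Colec12 (0.995) and Col6a2 (0.974) with Zeb1 and had Col6a1 (0.983), while Prrx1 was close to Tgfbi (0.983) and the lysyl oxidase-like gene Loxl1 (0.975). Vim was most like Emp3 (0.971), Praf2 (0.964) and Lrrc8c (0.957), Fn1 like Sgce (0.920), Fstl1 (0.919) and Emp3 (0.911), and Cdh2 like Col6a1 (0.948), Sept7 (0.916) and Col6a2 (0.911). Most of these neighbours were low in the luminal mice, such as Colec12 at no more than 0.218 CPM and Col6a2 at 0. Over 11 mice such values can rest on a few tumors standing apart, all 4 for Snai1 and Vim and fewer for the other members. What they rest on was not tested, and they are given as a description.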

How the data were processed

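Single luminal and tumor cells were captured on Fluidigm C1 chips, and cDNA libraries of each cell were sequenced. The authors deposited one table of raw read counts per gene and cell, not normalized. Per the submitters' processing notes and methods, reads were trimmed with sickle and Trim Galore 0.4.1, aligned to mm10 with STAR 2.5.3a and counted with Subread 1.5.3. Strand handling in counting is not given in the sources used here. Cells with identical values were searched for, and 0 were found.

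The counts of all cells from a mouse were added up and compared by the quasi-likelihood test of edgeR 4.0.16 (R 4.3.3; filterByExpr, TMM; Benjamini-Hochberg over all genes tested), with DESeq2 1.42.0 as an alternative. The SE of a log2 fold change is its absolute value divided by the square root of F. DESeq2 gave no adjusted p for Vim and Zeb2 between tumors and luminal mice, and these were left as missing. Mice held 40338926 to 115827852 reads. Per-cell shares and correlations used cells thinned to 100000 reads with Python 3.11.15, numpy 2.4.6, pandas 2.3.3 and scipy 1.17.1. Figures were drawn with matplotlib 3.10.9. The edgeR test was also run on simulated counts with set changes, for tumors against luminal mice and for pregnancy. Its recovery is not given here, and the other comparisons and DESeq2 were not simulated. Gene positions are from GENCODE vM21.

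The members and the gene lists were chosen with earlier results of these data known. The text names all members, up to 4 genes of a list (those called with the largest fold change, otherwise those of largest fold change) and the 3 nearest genes of each member with at least 10 CPM in a mouse. Some genes that this rule names are not reported here. Cdh1 is named as the target of the regulators, and single cells were chosen after their values were seen. Alternatives were RLE size factors, no filter, DESeq2, thinned cells, other luminal mice and leaving out each mouse. Leaving out the luminal cell with 3 members or the top cell of a gene, splitting cells by all reads, and the fit of the 4 luminal mice on shared chips were added after seeing the data. The 11 mice were on 8 chips, and p-values measure the spread between these mice.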

Additional observations from a re-analysis of the deposited data

Results flagged for a closer look

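In 8 of 18 combinations of a member and a group 1 mouse lay far from the others, measured by the gap to its nearest neighbour over the range of the group. Chance gives about 1 in 20 for normally distributed values, which these are not. Over all genes the same gap was found for 30.0% in the tumors, beside 4 of 10 members, and for 34.1% in the Brca1-deficient luminal mice, beside 4 of 8 members. In the tumors this was BrT1 for Zeb1 (290.5 CPM, next 21.5), Zeb2 (100.5 CPM, next 3.45), Twist2 (1.84 CPM, next 0) and Vim (4080 CPM, next 306). In the Brca1-deficient luminal mice it was vBr53L for Snai1 (0.0588 CPM, next 0.0130), pBrL-1 for Snai2 (3.46 CPM, next 0.129), pBr53L for Fn1 (67.96 CPM, next 11.8) and vBrL for Cdh2 (2.03 CPM, next 0.397).

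For 3 members both Br tumors lay above and both Br53 tumors below the mean of the luminal mice of their own genotype, as differences of log2(CPM + 1), as did 3.04% of all 19603 genes with a read. For Zeb1 the differences were 8.13 in BrT1 and 4.43 in BrT2, and -1.09 in Br53T1 and -1.12 in Br53T2. For Zeb2 they were 6.67 and 2.15, and -2.35 and -2.26. For Cdh2 they were 2.85 and 1.07, and -0.39 and -0.18. The luminal mean of Br53 mice was 1.21 CPM for Zeb1 and 4.19 for Zeb2, and 1 cell gave 99.3% of the Zeb2 reads in vBr53L and 1 cell 83.6% in pBr53L. The test of the difference itself, an interaction of tissue and genotype in edgeR over 15051 genes, called 1 gene (0.00664%) and none of 9 members tested, with an adjusted p of 0.166 for Zeb1, 0.336 for Zeb2 and 0.952 for Cdh2. By DESeq2 412 genes (2.74%) and 3 members passed it (Twist1, Zeb1 and Zeb2).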

How the results depend on the processing

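Counts of calls moved with the setting. Between tumors and Brca1-deficient luminal mice, 129 genes and 2 members passed with no filter, 808 and 3 by DESeq2, 177 genes in thinned cells, 213 against all 7 luminal mice and 44 against the 3 pregnant ones. Leaving out the luminal cell with 3 members gave 105 of 12967 genes and 2 of 7 members tested. That cell was picked for its reads of Vim, Fn1 and Zeb2, so this is no test of them. Leaving out each mouse gave 11 to 94 genes and 0 to 2 members. Between Br53 and Br tumors, 295 genes and 5 members passed with no filter and 315 and 3 by DESeq2, and leaving out each mouse gave 0 to 228 genes and 0 to 4 members, the highest without BrT2. The interaction gave 281 genes and 4 members with no filter, 412 and 3 by DESeq2, 0 genes in thinned cells, and 0 to 156 genes and 0 to 2 members without each mouse. Pregnancy gave 366 genes with no filter, 1044 and 1 member by DESeq2, 24 in thinned cells, 8 in the 4 mice on shared chips, and 0 to 41 without each mouse. Br53 against 53 luminal mice gave 80 genes with no filter, 582 by DESeq2, and 0 to 123 without each mouse.

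Directions reversed in 4 of 160 alternative log2 fold changes of members in the comparisons of tumors with luminal mice and of Br53 with Br tumors. With 1 mouse left out at a time, between tumors and luminal mice Zeb2 ran from -0.54 (without BrT1) to 4.12. Between Br53 and Br tumors Snai1 ran from -1.50 to 0.30 (without Br53T2), Snai2 from -7.47 (without Br53T2) to 8.62 and Prrx1 from -11.36 to 5.06 (without BrT1). In the other comparisons, where no member passed edgeR, signs turned too. Without pBr53L the Fn1 value went from -7.79 to 3.27 in the interaction and from 5.34 to -2.24 between Br53 and 53 luminal mice, and without vBrL that of Cdh2 went from -1.10 to 3.41 for pregnancy. Where an arm was left with 1 mouse, it was assumed to vary like the others. The cause of these shifts was not tested. In pBr53L 1 cell gave 98.1% of the Fn1 reads, and in vBrL 1 cell gave 91.5% of the Cdh2 reads. RLE size factors kept every count within 1.5 times. No pair of genes reached a rho of 0.5 under any setting run. No paired analysis by replicate number was possible because pBrL alone had a second replicate. Mice were paired by chip in the pregnancy fit of 4 mice alone.

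The precision is limited by 1 mouse a group and, for the members in luminal cells, by reads that come from few cells.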
